A study of Mus musculus with 24 samples.

Results

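The genes described here are 10 components of the transforming growth factor beta (TGF-beta) pathway, measured as messenger RNA in whole mouse aortas. They were listed by gene name, and earlier results of these data were known when they were chosen. The set holds the ligands Tgfb1, Tgfb2 and Tgfb3 and the latent TGF-beta binding proteins Ltbp1, Ltbp2 and Ltbp4. It also holds the receptors Tgfbr1 and Tgfbr2 and the signal carriers Smad3 and Smad7. The deposited table lists 21959 genes, of which 14216 had enough reads to be tested. All 10 pathway genes were among those tested, with 169 to 29448 reads per gene and library.

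TGF-beta is made as an inactive precursor. Its cut propeptide stays bound to the growth factor, and a latent binding protein ties the complex to fibrillin-rich elastic fibres and other matrix until proteases, integrins or mechanical pull set the ligand free. The free ligand joins the type II receptor with the type I receptor, which phosphorylates Smad2 and Smad3, and these enter the nucleus with Smad4 and switch on target genes. Smad7 is itself such a target and dampens the pathway at the receptor. In the aorta the pathway governs matrix production and the contractile state of smooth muscle, and mutations in ligand, receptor, Smad3 and fibrillin genes cause inherited aneurysm and dissection.

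Male mice entered the experiment at 3 weeks of age, housed singly. β-Aminopropionitrile (BAPN), which blocks lysyl oxidase and so the cross-linking of collagen and elastin, was given at 0.5% (w/v) in the water for 28 days to induce aneurysm and dissection, while the other mice drank regular water. The 4 groups were wild type on plain water (WT, 6 libraries), wild type on BAPN (WT-BAPN, 7), ATAD3A-KI on plain water (KI, 5) and ATAD3A-KI on BAPN (KI-BAPN, 6). Atad3a, which encodes a mitochondrial membrane ATPase, was at 24.9 to 61.4 CPM (counts scaled to a common library size with TMM factors) in the wild-type libraries and at 231 to 1629 CPM in the knock-in libraries, so every knock-in library lay above every wild-type one. The labels do not give the knock-in's promoter, its construct or whether the line is 1 founder, so the cells that carry it are not known here. RNA came from the vessel between the ascending aorta and the bifurcation in the abdomen, so all wall layers and any tissue left attached were pooled. In such bulk tissue, fewer cells of a type and less RNA per cell cannot be told apart.

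Library totals ran from 13127645 to 26490651 counts. The smooth muscle marker Myh11 was at 2046 to 11872 CPM. The smooth muscle markers had the highest mean log2 CPM of 14 marker lists in 22 of the 24 libraries. In WT replicate 5 they (9.19) stood below those of airway (10.9) and skeletal muscle (9.89), and in KI-BAPN replicate 3 (8.47) below those of adipocytes (8.73) and erythroid cells (8.56). WT replicate 5 stood apart from the other 5 WT libraries. It held 9680 CPM of the airway gene Bpifa1 (1.57 to 41.3 in the others), 1976 CPM of the skeletal muscle gene Acta1 (0.342 to 4.79) and 4198 CPM of the smooth muscle actin Acta2 (28359 to 39695). KI replicates 1, 2 and 5 stood apart by a sympathetic neuron score. Calls that change with these libraries are given with and without them.

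Promoter sequences were looked up for the ligands first, since the ligands held both of the largest differences between groups. The RefSeq table (GRCm38.p6) had Tgfb1 and Tgfb2, and the 250 bases before each start are printed 5′ to 3′ on the gene's strand. They are shown because their start regions are of different kinds. Tgfb1 differed least between groups and Tgfb2 most between genotypes, though edgeR called neither with all libraries. Tgfb3 was not matched, and a link between start region and level was not tested. Capitals mark 5 motifs searched on both strands. The GC box was searched as GGGCGG. The letters taken for the TATA box were TATAAA. An E-box was read as CACGTG. The Smad-binding element with its flanking base was written CAGACA. For the cyclic AMP response element (CRE) the letters were TGACGTCA. No motif overlaps another in these windows.
Tgfb1, chr7:25686752-25687001, plus strand: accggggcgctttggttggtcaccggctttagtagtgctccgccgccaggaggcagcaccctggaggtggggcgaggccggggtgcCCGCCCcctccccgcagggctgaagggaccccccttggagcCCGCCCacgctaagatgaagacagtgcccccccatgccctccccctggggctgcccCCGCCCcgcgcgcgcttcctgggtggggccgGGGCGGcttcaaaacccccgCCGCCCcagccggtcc
Tgfb2, chr1:186705990-186706239, minus strand: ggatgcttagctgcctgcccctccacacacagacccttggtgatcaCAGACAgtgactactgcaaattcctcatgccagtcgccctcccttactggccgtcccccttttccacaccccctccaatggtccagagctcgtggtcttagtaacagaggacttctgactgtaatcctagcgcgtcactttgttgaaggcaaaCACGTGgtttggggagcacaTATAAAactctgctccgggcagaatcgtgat
The Tgfb1 window was 75.2% G and C, with 5 GC boxes and no TATA box in these letters. The Tgfb2 window was 53.6% G and C, with a TATA box 31 bases, an E-box 51 bases and a Smad-binding element 204 bases before the start, and no GC box. Among all 32851 RefSeq promoter windows of this length, 32.7% held a GC box, 12.4% a TATA box, 6.02% an E-box, 17.1% the Smad-binding element and 1.55% the CRE. Of the other windows searched, only that of Ltbp1 at its upstream start held a CRE, 73 bases before the start. GC boxes also stood in windows of Smad3 (2), Ltbp2 (2), Tgfbr1 at its upstream start (2) and Ltbp4 (3, 5 and 7, where the windows with 5 and 7 overlap). The Smad-binding element also stood in the downstream windows of Ltbp1 (2) and Tgfbr1 (1). The Tgfbr2 window held none of the 5 motifs. A match is a description of letters, not evidence of binding.

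Per kilobase of exon, Ltbp4, Ltbp1 and Tgfb3 led the set. In WT the mean levels were 111 CPM per kilobase for Ltbp4, 79.0 for Tgfb3, 77.6 for Ltbp1, 32.7 for Tgfbr1, 26.3 for Tgfb2, 18.8 for Tgfbr2, 16.3 for Ltbp2, 9.07 for Smad7, 6.08 for Tgfb1 and 5.17 for Smad3. Thus, by this length, Tgfb1, the ligand most often studied, was the scarcest of the ligand messages in every group, at 5.09 to 6.28 CPM per kilobase. Ltbp4 had the highest mean per kilobase of exon in every group. Tgfb3 came next in WT, and Ltbp1 stood between them in the other groups. Every gene overlapped its neighbour in this order in each of the 4 groups, so the order of adjacent genes is not resolved. Without WT replicate 5 the gaps between Ltbp1 and Tgfbr1 and between Tgfbr2 and Smad7 were free of overlap in WT. The order depends on the length used. With the longest transcript in place of all exons, Ltbp1 in WT was at 124 CPM per kilobase, beside 133 for Ltbp4. Tgfb1 was then at 11.9, above Smad7 (9.58). The longest transcript has 6671 bases for Ltbp1 (10691 of exon) and 5386 for Ltbp4 (6463 of exon). The lead of Ltbp4 over Ltbp1 in the other groups is therefore stated for exon length only.

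**Figure D1:**
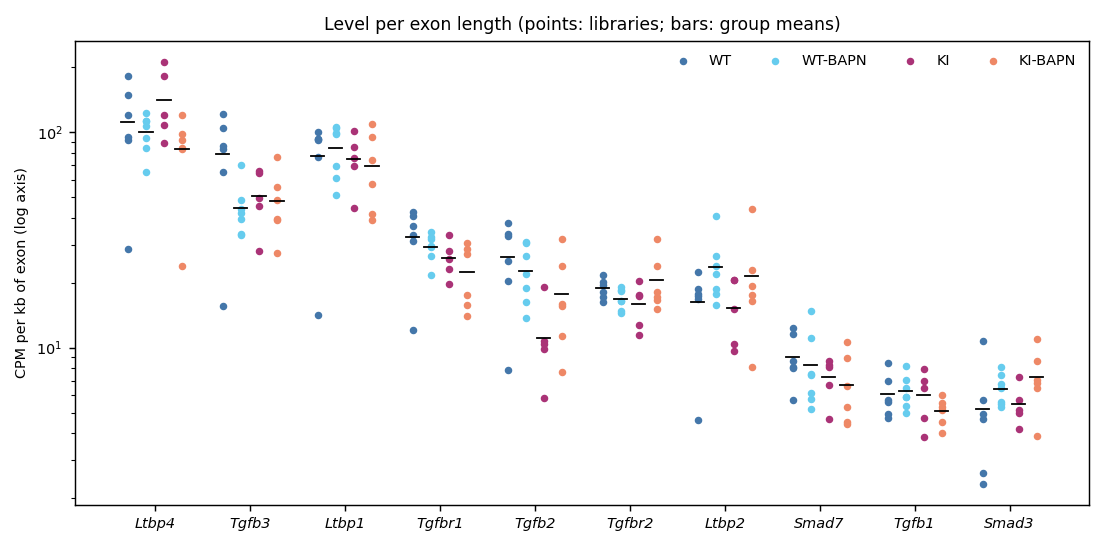
Levels of the 10 genes per kilobase of exon (vertical log axis, CPM per kilobase), 1 point per library and a bar at each group mean, ordered by the WT mean. Ltbp4, Tgfb3 and Ltbp1 lie highest and Smad7, Tgfb1 and Smad3 lowest, and the lone low WT points of Ltbp4, Tgfb3 and Ltbp1 are replicate 5.

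Comparisons were made on 5 questions: BAPN in each genotype, genotype on each kind of water, and their interaction. A gene was called at a Benjamini-Hochberg adjusted p under 0.05 in edgeR's quasi-likelihood test over all 14216 genes. None of the 10 pathway genes was called in any of them, against 6.14% of all genes for BAPN in WT (873 genes), 0.0352% for BAPN in KI (5), 0.19% for KI against WT on plain water (27), 0.00703% for KI against WT on BAPN (1) and 0% for the interaction. At an unadjusted p under 0.05 the pathway genes counted 1, 2, 1, 0 and 1 in these comparisons, where all genes gave 25.0%, 10.1%, 16.9%, 13.9% and 14.8%. DESeq2 called 0, 0, 1, 0 and 0 of them, where it called 10.7%, 1.42%, 3.45%, 1.82% and 0.105% of the genes it gave an adjusted p. On BAPN it gave one for only 1535 genes, and none for Tgfb1, Smad3 and Smad7. Calls by limma voom with quality weights were 2, 0, 1, 0 and 0, against 29.7%, 0%, 1.9%, 0.0211% and 0.0281% of all genes, so its 2 calls of 10 for BAPN in WT lie below its background. None of the 10 genes had groups free of overlap with all libraries, where 2.12%, 0.647%, 2.38% and 0.218% of all genes had in the first 4 comparisons. Their median log2 changes were -0.14, -0.10, -0.17, -0.26 and -0.02, beside -0.04, -0.03, -0.01, -0.02 and 0.01 for all genes. The comparisons share groups, so their values are not independent. Nothing in the labels beyond the listing as separate samples describes the replicates, and p-values measure the spread between these samples.

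Tgfb3, the ligand known for palate fusion and for a familial form of aneurysm, was the most abundant ligand message and had the widest difference on BAPN. It lies on chromosome 12 from 86056745 to 86079041 on the minus strand (GRCm38, GENCODE M21). In WT it was at 52.3 CPM at the lowest (replicate 5), 286 at the median and 409 at the highest. In WT-BAPN the lowest, median and highest were 112, 143 and 238 CPM. Most WT libraries thus lay above most BAPN libraries, with replicate 5 below them all. The fitted log2 change was -0.83 ± 0.32 (SE; 95% interval -1.49 to -0.17), which did not pass the test (edgeR adjusted p = 0.112).

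Without WT replicate 5, Tgfb3 fell on BAPN in WT by 1.04 on the log2 scale (interval -1.54 to -0.55, edgeR adjusted p = 0.0138), where 7.85% of all genes were called. Even then the groups overlapped (5.33% of all genes did not), since WT-BAPN replicate 1 (238 CPM) exceeded WT replicate 6 (220). The fit without the 4 libraries that stood apart was nearly the same (log2 -1.05, edgeR adjusted p = 0.0108, 10.5% of all genes called). Of those 4, only WT replicate 5 belongs to this contrast, so that fit is not a separate check. With all libraries limma voom called Tgfb3 (-1.06, adjusted p = 0.00116), but DESeq2 did not (-0.85, adjusted p = 0.0629). Leaving out any other single WT or WT-BAPN library gave adjusted p of 0.0715 to 0.236. Airway markers moved with this contrast: their summed level was 6.59 to 116 CPM in the other 5 WT libraries, 18526 in replicate 5, and 0.341 to 9.11 CPM in WT-BAPN. Smooth muscle markers moved with it as well, with 39696 to 56396 CPM in the other 5 WT libraries, 11328 in replicate 5, and 14941 to 42503 CPM in WT-BAPN. The part of either list in the result was not tested.

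In the knock-in, Tgfb3 was at 94.9, 154, 167, 217 and 222 CPM on plain water, and at 92.2, 149 and 259 CPM (lowest, median, highest) on BAPN. Both knock-in groups spanned nearly the same range. The log2 change was -0.08 (interval -0.80 to 0.63, edgeR adjusted p = 0.948). KI against WT on plain water gave -0.65 (interval -1.37 to 0.08, adjusted p = 0.357), and -0.86 (adjusted p = 0.0843) without WT replicate 5. The interaction, which asks whether BAPN acted differently in the 2 genotypes, was 0.75 (interval -0.23 to 1.72, adjusted p = 0.435) and 0.96 (0.24 to 1.68, adjusted p = 0.253) without that library. No difference between the genotypes in the response of Tgfb3 was therefore shown, though intervals that wide cover a large one.

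The 3′ end of Tgfb3 overlaps Ttll5, a tubulin glutamylase gene on the opposite strand (chromosome 12, 85824659 to 86061893). The strand setting of the counts is not given, so reads in the overlap cannot be assigned. Ttll5 was at 10.2 to 22.8 CPM in all 24 libraries, well under the 52.3 to 409 CPM of Tgfb3.

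Tgfb2, the ligand of heart and arch development and of a Loeys-Dietz form of aneurysm, differed most between genotypes. It lies on chromosome 1 from 186622792 to 186705989 on the minus strand, behind the TATA-bearing promoter printed above. WT libraries were at 45.8 (replicate 5), 168 and 220 CPM at the lowest, median and highest. KI libraries on plain water were at 33.8, 56.7, 60.2, 62.2 and 110 CPM. The KI libraries thus lay low, and only WT replicate 5 fell within their range. The log2 difference was -1.24 ± 0.38 (SE; interval -2.02 to -0.46), a ratio of 0.424 that did not pass over all genes (edgeR adjusted p = 0.119).

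Without WT replicate 5, Tgfb2 was lower in KI by a log2 of -1.43 (interval -2.12 to -0.73, edgeR adjusted p = 0.0332), where 2.08% of all genes were called. The remaining WT libraries (118 to 220 CPM) and the KI libraries (33.8 to 110) then did not overlap. It was the only one of the 10 genes apart in any comparison, and 6.13% of all genes were apart in this one. DESeq2 called it with all libraries (log2 -1.24, adjusted p = 0.0334), and so did limma voom (-1.40, adjusted p = 0.0166). Without the 4 libraries that stood apart the difference was as large (-1.51), but with KI replicates 3 and 4 as the KI libraries left it was not called (edgeR adjusted p = 0.357, 0.0069% of all genes called). Leaving out any single KI library gave adjusted p of 0.121 to 0.289.

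Sympathetic neuron markers moved with this contrast. Their summed level was 23.5 to 68.2 CPM in WT and 38.8 to 1283 CPM in KI. In KI replicates 3 and 4 it was 44.5 and 38.8 CPM. Those 2 KI libraries had 62.2 and 60.2 CPM of Tgfb2, under the 118 CPM of the lowest WT library other than replicate 5. The part of these markers in the Tgfb2 difference was not tested.

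On BAPN, Tgfb2 was at 79.2, 127 and 179 CPM in WT-BAPN and 44.5, 91.0 and 185 CPM in KI-BAPN (lowest, median, highest). The groups overlapped almost throughout. KI against WT on BAPN gave a log2 difference of -0.36 (interval -1.05 to 0.34, edgeR adjusted p = 0.664). BAPN gave -0.22 (-0.91 to 0.48, adjusted p = 0.717) in WT and 0.67 (-0.10 to 1.43, adjusted p = 0.551) in KI, with an interaction of 0.88 (-0.15 to 1.91, adjusted p = 0.390). Without WT replicate 5 the change in WT was -0.41 (-1.03 to 0.22, adjusted p = 0.396) and the interaction 1.07 (0.16 to 1.98, unadjusted p = 0.0232, edgeR adjusted p = 0.290). A difference between the genotypes in response was therefore not called over all genes in either fit.

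Tgfb1, the ligand of immune control and fibrosis, varied least of the ligands. It lies on chromosome 7 from 25687002 to 25705077 on the plus strand, behind the GC-rich promoter printed above. Its lowest, median and highest levels were 23.9, 28.5 and 42.8 CPM in WT, 25.2, 29.7 and 41.5 in WT-BAPN, and 20.2, 26.4 and 30.2 in KI-BAPN, and the KI libraries were at 19.5, 23.9, 32.8, 35.2 and 40.2 CPM. All groups overlapped. BAPN gave a log2 change of 0.05 (interval -0.30 to 0.39, edgeR adjusted p = 0.889) in WT and -0.24 (-0.61 to 0.13, adjusted p = 0.659) in KI. Genotype gave -0.02 (-0.39 to 0.36, adjusted p = 0.974) on plain water and -0.31 (-0.65 to 0.04, adjusted p = 0.416) on BAPN. All of these intervals lie inside 1 log2 unit in either direction.

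The mix of ligand messages per kilobase was also computed. Tgfb3 made up 68.5 ± 8.38% (SD, n = 6) of the 3 ligands in WT, 60.4 ± 4.52% (n = 7) in WT-BAPN, 73.7 ± 7.16% (n = 5) in KI and 67.8 ± 4.90% (n = 6) in KI-BAPN. Tgfb2 made up 24.2 ± 3.67%, 30.6 ± 4.36%, 17.3 ± 7.60% and 24.3 ± 5.46%, and Tgfb1 the remainder, 7.31 to 8.98% on average. In WT replicate 5 the share of Tgfb1 was 19.7%, against 3.91 to 5.84% in the other WT libraries. So Tgfb3 was the main ligand message in all groups, and no tests were run on these shares. They use the exon length, which is 5042 bases for Tgfb1, whose longest transcript has 2573. For Tgfb3 both lengths are 3383 bases, so the share of Tgfb1 would be larger with the longest transcript.

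**Figure D2:**
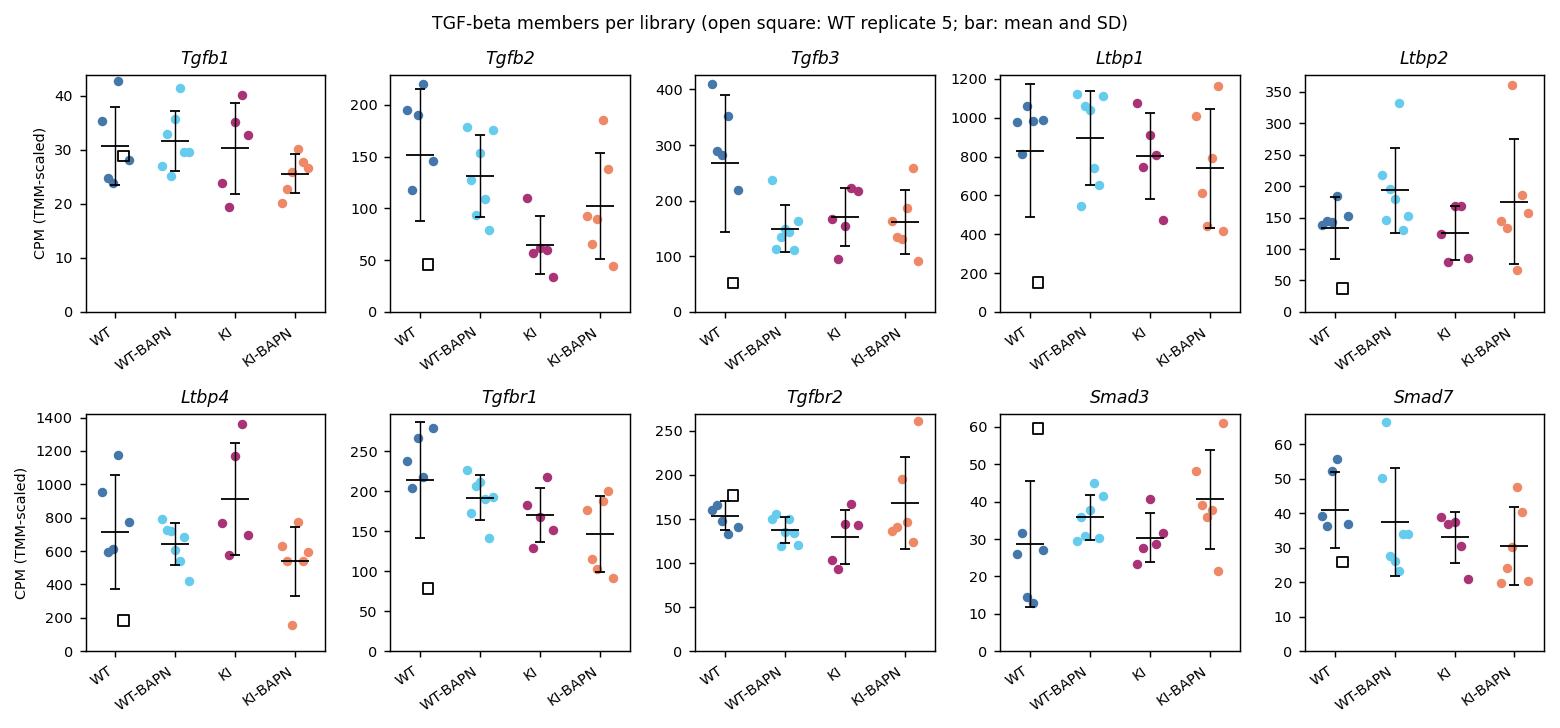
CPM (vertical axis, TMM-scaled) of each gene in each library by group, with the mean and SD as bars and WT replicate 5 as an open square. Tgfb3 in WT lies mostly above the other groups and Tgfb2 in KI mostly below WT, while the open square is far below the other WT points for Ltbp1, Ltbp2, Ltbp4, Tgfb2, Tgfb3 and Tgfbr1.

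The latent binding proteins hold the ligands in the matrix. Ltbp1, which binds all the ligand precursors to fibrillin and fibronectin (chromosome 17, 75005568 to 75392512, plus strand), was at 152, 982 and 1061 CPM in WT (lowest, median, highest). It was at 544, 1041 and 1125 CPM in WT-BAPN, at 416, 703 and 1166 in KI-BAPN, and at 474, 745, 806, 913 and 1078 in KI. The WT libraries other than replicate 5 were tightly grouped, from 813 to 1061 CPM, and the other groups spread wider around them. BAPN gave a log2 change of 0.11 (interval -0.58 to 0.80, edgeR adjusted p = 0.861) in WT, which was -0.11 (-0.63 to 0.42, adjusted p = 0.817) without replicate 5. It gave -0.12 (-0.86 to 0.63, adjusted p = 0.927) in KI.

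Ltbp2, which sits on microfibrils but does not bind the ligands (chromosome 12, 84783212 to 84876532, minus strand), ran at 37.7, 144 and 184 CPM in WT and 130, 180 and 332 CPM in WT-BAPN. The log2 change on BAPN was 0.53 (interval -0.17 to 1.23, edgeR adjusted p = 0.335) in WT and 0.49 (-0.27 to 1.25, adjusted p = 0.665) in KI. Both were positive, neither passed, and both groups overlapped their controls. Leaving out WT replicate 5 gave 0.34 in WT (-0.29 to 0.97, adjusted p = 0.483). Without the 4 libraries that stood apart, with KI replicates 3 and 4 left, Ltbp2 in KI changed by 0.05 (-0.795 to 0.903, edgeR adjusted p = 0.965). Its highest values were 332 CPM in WT-BAPN replicate 5 and 361 CPM in KI-BAPN replicate 3. Those libraries also held the highest mesothelium scores (4.44 and 4.24 mean log2 CPM, where the other libraries ran from -3.09 to 3.77). WT-BAPN replicate 2 and KI-BAPN replicate 6, next by score (3.77 and 3.43), had 146 and 157 CPM of Ltbp2. By summed CPM the mesothelium markers were highest in WT replicate 5 (452 CPM), the library with the lowest Ltbp2 (37.7 CPM). The part of this list in the Ltbp2 values was not tested.

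Ltbp4, the binding protein needed for elastic fibre assembly (chromosome 7, 27305136 to 27337692, minus strand), had the widest difference of the binding proteins in the knock-in. KI libraries were at 574, 697, 766, 1171 and 1362 CPM, and KI-BAPN libraries at 155, 567 and 775 CPM (lowest, median, highest). The ranges overlapped between 574 and 775 CPM. The log2 change was -0.76 ± 0.36 (SE; interval -1.51 to -0.01, edgeR adjusted p = 0.488). Without the libraries that stood apart it was -1.23 (-2.0 to -0.47, edgeR adjusted p = 0.213, 0.0207% of all genes called). That fit kept only KI replicates 3 and 4 of KI, its highest libraries for Ltbp4 (1171 and 1362 CPM). With each library left out in turn the change ran from -0.89 to -0.57. In WT the change on BAPN was -0.16 (-0.85 to 0.54, adjusted p = 0.801), from 185, 693 and 1176 CPM in WT to 419, 686 and 791 CPM in WT-BAPN. It was -0.36 without WT replicate 5 (-0.95 to 0.24, adjusted p = 0.437). The interaction was -0.60 (-1.63 to 0.42, adjusted p = 0.549).

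Markers of macrophages moved with BAPN in the knock-in, with a summed level of 43.8 to 160 CPM over the 8 markers in KI and 159 to 1473 CPM in KI-BAPN, none of the markers being at 0 in a whole group. Smooth muscle markers summed to 23367 to 53831 CPM in KI and 10425 to 39687 CPM in KI-BAPN. The part of either in the Ltbp4 difference was not tested. KI-BAPN replicate 3, with the highest macrophage level and the lowest smooth muscle level (10425 CPM), had the lowest Ltbp4 (155 CPM).

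Tgfbr1, the type I receptor kinase (chromosome 4, 47353222 to 47414931, plus strand), had its highest mean in WT and its lowest in KI-BAPN, groups that were not compared directly. It was at 78.1, 228 and 279 CPM in WT, 142, 193 and 226 CPM in WT-BAPN, 129, 152, 168, 183 and 218 CPM in KI, and 91.5, 146 and 200 CPM in KI-BAPN. All groups overlapped. KI against WT gave a log2 difference of -0.33 (interval -0.85 to 0.19, edgeR adjusted p = 0.531) on plain water and -0.40 (-0.88 to 0.08, adjusted p = 0.448) on BAPN. Without WT replicate 5 the first was -0.50 (-0.92 to -0.09, adjusted p = 0.175).

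Tgfbr2, the type II receptor that binds ligand first (chromosome 9, 116084293 to 116175360, minus strand), had the lowest coefficient of variation of the 10 genes in WT and in WT-BAPN (10.6% in both). It was at 133, 154 and 177 CPM in WT and 119, 135 and 156 CPM in WT-BAPN. KI libraries were at 93.5, 104, 143, 144 and 167 CPM and KI-BAPN libraries at 124, 144 and 261 CPM. BAPN gave a log2 change of -0.16 (interval -0.49 to 0.17, edgeR adjusted p = 0.556) in WT and 0.36 (0.00 to 0.73, adjusted p = 0.492) in KI. The interaction of 0.53 (0.04 to 1.02) had an unadjusted p of 0.0369 and an edgeR adjusted p of 0.318. Without KI replicates 1, 2 and 5 and WT replicate 5 the change in KI was 0.11 (edgeR adjusted p = 0.844). WT replicate 5 is not part of that contrast. With each library left out in turn the change in KI ran from 0.20 to 0.47, so its size varied with the libraries used.

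The 2 receptors need each other, and their ratio per kilobase was therefore computed in each library. Tgfbr1 over Tgfbr2 was 1.79 ± 0.686 (SD, n = 6) in WT, 1.76 ± 0.327 (n = 7) in WT-BAPN, 1.67 ± 0.333 (n = 5) in KI and 1.23 ± 0.617 (n = 6) in KI-BAPN. Only 3 libraries had more Tgfbr2 than Tgfbr1: WT replicate 5 (0.553), KI-BAPN replicate 3 (0.660) and KI-BAPN replicate 6 (0.440). Their macrophage scores, 5.56, 6.95 and 6.15 mean log2 CPM, were among the 5 highest of the 24. WT-BAPN replicates 5 and 2, with scores of 5.8 and 5.6, had ratios of 1.58 and 1.40. No test was run on the ratio.

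Smad3, the signal carrier (chromosome 9, 63646767 to 63757994, minus strand), was the least abundant member in WT. It was at 13, 26.6 and 59.5 CPM in WT, 29.4, 36.0 and 45.1 CPM in WT-BAPN, 23.3, 27.7, 28.6, 31.5 and 40.7 CPM in KI, and 21.5, 38.5 and 61.0 CPM in KI-BAPN. Replicate 5 was here the highest WT library, and the other WT libraries (13 to 31.7 CPM) overlapped WT-BAPN only by replicate 2. BAPN gave a log2 change of 0.32 (interval -0.24 to 0.88, edgeR adjusted p = 0.475) in WT. Without replicate 5 it was 0.67 (0.19 to 1.15, adjusted p = 0.0714), and limma voom, which gives libraries weights, called it (0.63, adjusted p = 0.0289). In KI the change was 0.42 (-0.19 to 1.03, adjusted p = 0.632), also positive and not called.

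Smad7, the inhibitory Smad (chromosome 18, 75367529 to 75395935, plus strand), was at 25.9, 38.0 and 55.8 CPM in WT, 23.4, 33.9 and 66.5 CPM in WT-BAPN and 19.9, 27.1 and 47.7 CPM in KI-BAPN. KI libraries were at 21.1, 30.5, 36.9, 37.6 and 39.0 CPM. The groups overlapped throughout. BAPN gave a log2 change of -0.13 (interval -0.65 to 0.39, edgeR adjusted p = 0.781) in WT (-0.23 without WT replicate 5, adjusted p = 0.586) and -0.12 (-0.69 to 0.45, adjusted p = 0.902) in KI, and genotype gave -0.31 (-0.89 to 0.26, adjusted p = 0.600) on plain water.

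**Figure D3:**
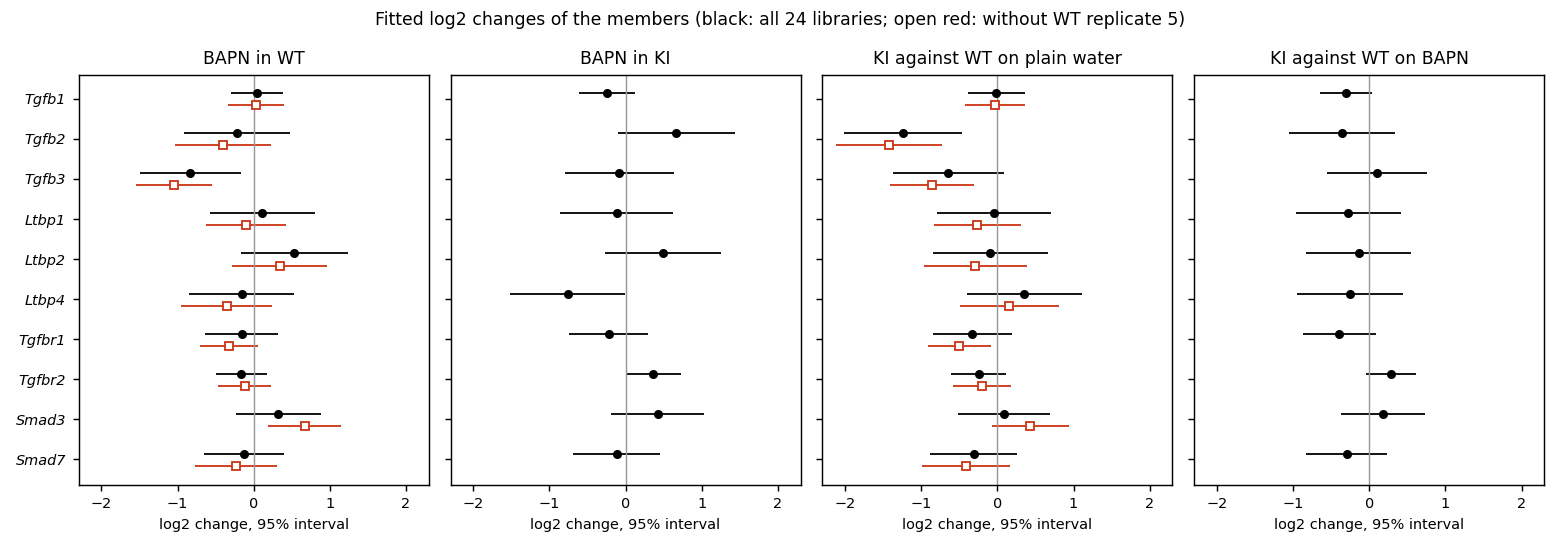
Fitted log2 changes (horizontal axis) with 95% intervals for the 10 genes in 4 comparisons, black for all 24 libraries and, in the panels that use WT, open red without WT replicate 5. The intervals of Tgfb3 (BAPN in WT) and Tgfb2 (KI against WT on plain water) lie below 0 in both fits, and most others cross 0.

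**Figure D4:**
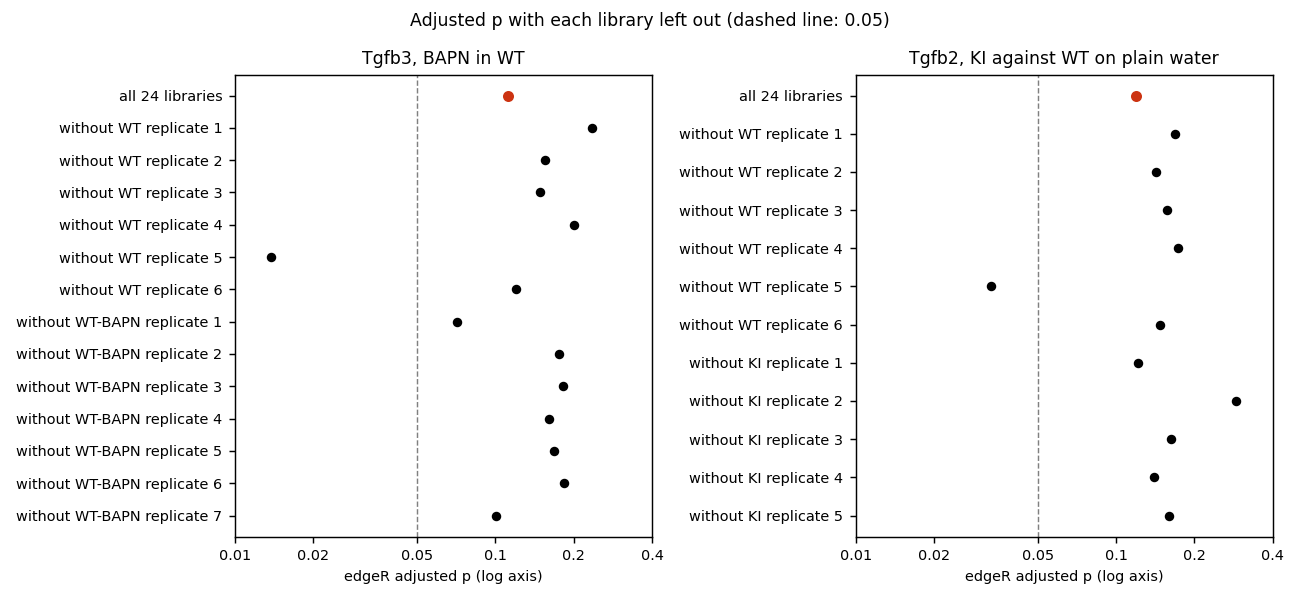
edgeR adjusted p (horizontal log axis) of Tgfb3 for BAPN in WT and of Tgfb2 for KI against WT on plain water, with all libraries (red) and with each library left out (black), and 0.05 as a dashed line. Only the fits without WT replicate 5 pass the line, at 0.0138 and 0.0332.

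WT replicate 5 moved most of the set. In it Ltbp1 (152 CPM), Tgfb3 (52.3), Ltbp4 (185), Ltbp2 (37.7), Tgfb2 (45.8), Tgfbr1 (78.1) and Smad7 (25.9) lay below all other WT libraries. Smad3 (59.5 CPM) and Tgfbr2 (177 CPM) lay above them all, and Tgfb1 (28.9 CPM) lay within their range. The smooth muscle markers of that library summed to 11328 CPM, while the remaining WT group held 39696 to 56396 CPM.

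Across all 24 libraries, with each group centred on its mean, several members followed the smooth muscle score, the mean log2 CPM of 7 markers. The relations were 20 (10 genes with the smooth muscle and the macrophage score), with p from 100000 permutations within groups, adjusted over the 20. Pearson's r with the smooth muscle score was 0.786 for Ltbp4 (permutation p = 0.00037, adjusted 0.0026; Spearman's rho 0.735, p = 0.00031) and 0.692 for Ltbp1 (p = 0.00039, adjusted 0.0026; rho 0.606, p = 0.00163). It was 0.662 for Tgfb3 (permutation p = 0.00106, adjusted 0.00417; rho 0.626, p = 0.00206) and 0.661 for Tgfbr1 (p = 0.00113, adjusted 0.00417; rho 0.595, p = 0.00161). For Tgfb2 it was 0.496 (permutation p = 0.0271, adjusted 0.0452; rho 0.525, p = 0.0128). Without the 2 libraries farthest from the median score, KI-BAPN replicate 3 and WT replicate 5, r was 0.512, 0.545, 0.624, 0.466 and 0.403 in the same order.

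With the macrophage score the same 5 genes ran the other way. Pearson's r was -0.723 for Ltbp1 (permutation p = 0.0001, adjusted 0.002; rho -0.685, p = 0.0008), -0.668 for Ltbp4 (p = 0.00125, adjusted 0.00417; rho -0.587, p = 0.00395) and -0.640 for Tgfbr1 (p = 0.00295, adjusted 0.00737; rho -0.600, p = 0.00503). It was -0.612 for Tgfb3 (permutation p = 0.00282, adjusted 0.00737; rho -0.531, p = 0.0117) and -0.565 for Tgfb2 (p = 0.0105, adjusted 0.021; rho -0.596, p = 0.00548). Tgfbr2 ran with the macrophage score, at 0.557 (permutation p = 0.00557, adjusted 0.0124; rho 0.592, p = 0.00365). Smad3 did so by Pearson's r (0.545, permutation p = 0.0182, adjusted 0.0332) but not by rho (0.419, p = 0.0638, adjusted 0.106). Without the same 2 libraries r was -0.648, -0.383, -0.462, -0.510, -0.486, 0.494 and 0.495 for these genes. Tgfb1, Ltbp2 and Smad7 passed with neither score (adjusted permutation p of 0.253 to 0.891). Genes and scores were read from the same libraries, and the labels give no batch within which to repeat this.

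The type I receptor and its ligand store ran closest among themselves: Ltbp1 and Tgfbr1 correlated at r = 0.904 over the 24 group-centred libraries (0.785 without WT replicate 5), Tgfb3 and Tgfbr1 at 0.857 (0.679) and Tgfb2 and Ltbp1 at 0.808 (0.699). Outside the set, the gene most like each member by Pearson's r among 14206 was Pls3 for Ltbp1 (r 0.974, rho 0.905), Pkd1 for Ltbp4 (0.962, 0.915), Chsy3 for Tgfbr1 (0.940, 0.882), Syde1 for Tgfb3 (0.923, 0.799) and Mtdh for Tgfb2 (0.920, 0.923). Less close were Selenon for Ltbp2 (0.837, 0.786), Mocs1 for Tgfbr2 (0.827, 0.843), Apobr for Smad3 (0.822, 0.674), Pigt for Tgfb1 (0.817, 0.828) and Plekhh3 for Smad7 (0.702, 0.726). The next in each case were St3gal2, Tead3, Xk, Slc22a2, Zc2hc1a, Ccdc80, Mindy1, Tmem154, Dnajc14 and Mapk7. These are descriptions over libraries that share tissue makeup.

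**Figure D5:**
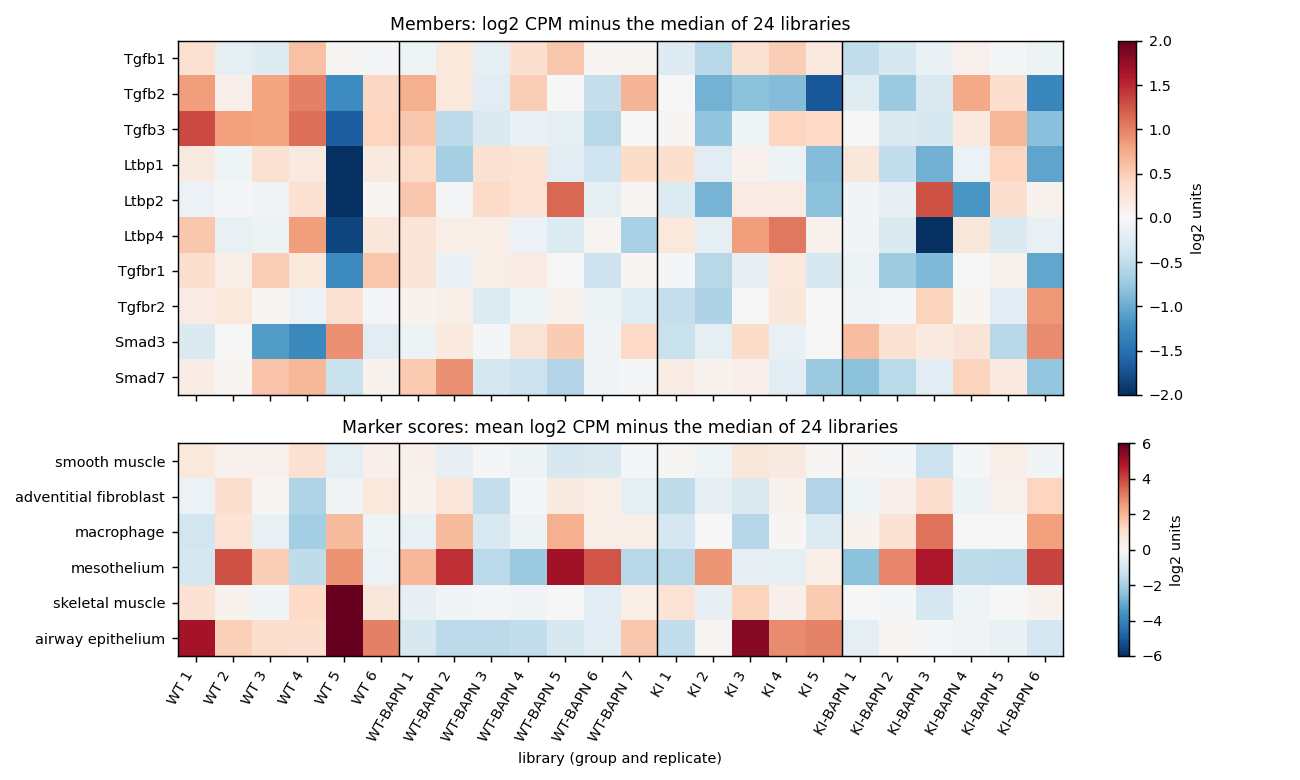
Upper panel: log2 CPM of each gene minus its median over 24 libraries, by library. Lower panel: 6 marker scores on the same footing. WT replicate 5 is dark blue for most genes and dark red for airway and skeletal muscle markers, and KI-BAPN replicates 3 and 6 are low for Ltbp1 and Tgfbr1 and high for macrophage and mesothelium markers.

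The rest of the pathway was read from 6 lists of 101 genes, 97 of them tested (Itgb6, Tgif2, Gdf5 and Mstn were not). For BAPN in WT edgeR called 8 of the 97, 3 higher and 5 lower, where 3.44% of all genes were higher and 2.7% lower. Of 9 other receptors, Smads and partners, 1 fell: Zfyve9, the anchor that brings Smads to the receptor (log2 -0.47 ± 0.11 SE, edgeR adjusted p = 0.0199). Acvrl1, an endothelial type I receptor (-0.45, adjusted p = 0.0906), and Smad4, the common partner Smad (-0.27, adjusted p = 0.133), did not pass. The median of the list was -0.15, beside -0.04 for all genes.

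Of 17 storage and activation genes, 1 fell: Tgm2, a transglutaminase that cross-links latent complexes into matrix, at 690 ± 190 CPM (SD, n = 6) in WT and 346 ± 111 CPM (SD, n = 7) in WT-BAPN, log2 -1.0 ± 0.25 (SE, edgeR adjusted p = 0.0255). Lrrc32, a cell-surface anchor of latent TGF-beta (-1.01, adjusted p = 0.0632), and the fibrillin gene Fbn1 (0.72, adjusted p = 0.136) did not pass. The list's median was 0.03. Of 14 inhibitors and modulators, 1 fell: Ppm1a, a phosphatase of the Smads (-0.40 ± 0.11, adjusted p = 0.0342). That call was lost in 10 of 13 fits with 1 library left out, at adjusted p up to 0.0758. Smurf1 (-0.40, adjusted p = 0.182) and Smad6 (0.70, adjusted p = 0.219) did not pass, and the median was -0.03.

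Of 24 textbook targets 3 rose and 1 fell, with a median log2 change of 0.57. Col5a2, a fibrillar collagen chain, rose, being at 379 ± 128 CPM (SD, n = 6) in WT and 849 ± 143 CPM (SD, n = 7) in WT-BAPN, log2 1.16 ± 0.27 (SE, edgeR adjusted p = 0.0207), and held in all 13 fits with 1 library left out. Cthrc1, a secreted protein of injured arteries, had a log2 change of 4.05 ± 1.04 (adjusted p = 0.0274) on levels of 0.645 to 2.50 CPM in WT and 1.71 to 103 CPM in WT-BAPN, and Timp1, a metalloprotease inhibitor, 2.91 ± 0.81 (adjusted p = 0.0369) on 7.21 to 38.7 and 18 to 801 CPM. Timp1 was at 0.81 with limma voom (adjusted p = 0.237), and edgeR with only the groups compared did not call it (2.91, adjusted p = 0.073). It lost its call in 8 of the 13 fits (1.66 without WT-BAPN replicate 7, adjusted p = 0.0871) and Cthrc1 in 3 (2.76 without WT-BAPN replicate 5, adjusted p = 0.0789; also without WT replicate 1 or 4). The gene that fell was Tagln, transgelin (-1.06 ± 0.29, adjusted p = 0.0369), named after its values were seen. At 9.73 to 54.6 CPM in all groups it was far under Acta2, and Pcsk7 overlaps it on the opposite strand, so its count is uncertain.

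Of 21 genes of the bone morphogenetic protein arm, 1 fell, a gene not reported here. The classic target Id1 did not pass, at -0.96 (edgeR adjusted p = 0.0586). Grem1, a secreted antagonist of that arm, was at -3.65 (adjusted p = 0.0756) with all libraries and at 0.54 (adjusted p = 0.723) without WT replicate 5. None of 12 activin arm genes was called by edgeR, with Gdf15 (1.29, adjusted p = 0.141), Inha (0.85, 0.148) and Gdf11 (-0.62, 0.215) nearest. At an unadjusted p under 0.05 the whole set of 97 counted 32, where 25% of all genes did. DESeq2 called 17 of them (10.7% of all genes) and limma voom 32 (29.7%). Without WT replicate 5 the counts by list were 2, 2, 1, 5, 2 and 0, in all 12 genes (7.85% of all genes were called), with Acvrl1 (-0.56, adjusted p = 0.0201), Lrrc32 (-1.20, 0.0188) and Id1 (-1.14, 0.0158) among those that fell. Timp1 was not called there (2.72, 0.0515). Zfyve9 was lost without WT replicate 1 (-0.42, adjusted p = 0.0510), and Tgm2 without WT replicate 1 or 4 or WT-BAPN replicate 4 or 5 (adjusted p of 0.0513 to 0.0606).

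In the other comparisons edgeR called 0 of the 97 pathway genes. At an unadjusted p under 0.05 there were 10 for BAPN in KI, 13 for KI against WT on plain water, 12 for KI against WT on BAPN and 12 for the interaction, beside 10.1%, 16.9%, 13.9% and 14.8% of all genes. DESeq2 called 1, 1, 0 and 0 (1.42%, 3.45%, 1.82% and 0.105% of the genes it gave an adjusted p), and limma voom 0, 1, 0 and 0 (0%, 1.9%, 0.0211% and 0.0281% of all genes). For BAPN in KI the gene of lowest adjusted p in each list was Dab2, an adaptor that binds Smads and receptors (1.18, edgeR adjusted p = 0.181, DESeq2 adjusted p = 0.0394), the precursor-cutting protease Furin (-0.58, 0.359), Smurf1 (-0.42, 0.493), Bhlhe40 (1.36, 0.278), Id1 (-1.02, 0.259) and the activin trap Fst (1.31, 0.474). For KI against WT on plain water, Smad2, the partner of Smad3, was at -0.42 (edgeR adjusted p = 0.142), Usp15 at -0.23 (0.206) and Gdf11 at -0.75 (0.263). Thbs1, an activator of latent TGF-beta (-2.11, 0.216), and Grem1 (-5.86, 0.1) shrank to -0.72 and -1.67 without WT replicate 5.

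For KI against WT on BAPN, Col5a2 was at -0.84 (interval -1.40 to -0.28, edgeR adjusted p = 0.243), and its interaction was -0.86 (adjusted p = 0.326). Col5a2, called for BAPN in WT, was therefore not shown to respond differently in the knock-in. Other genes of low adjusted p on BAPN were the co-receptor Tgfbr3 (0.52, edgeR adjusted p = 0.289), Furin (-0.29, 0.536), Usp15 (-0.27, 0.243), Plaur (-0.89, 0.243) and Gdf15 (-1.73, 0.243). For the interaction such genes were Zfyve9 (0.45, 0.281), Dcn (1.5, 0.331), Ppm1a (0.36, 0.319), Bhlhe40 (1.54, 0.291) and Gdf11 (1.17, 0.292). The 24 targets had a median log2 of 0.17 for BAPN in KI, -0.14 for KI against WT on plain water and -0.50 for KI against WT on BAPN, beside -0.03, -0.01 and -0.02 for all genes.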

How the data were processed

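Polyadenylated RNA of 24 aortas was sequenced. The authors deposited raw counts per gene, not normalized. Builds mm10 and GRCm38 and the tools HISAT2, Trim Galore, FastQC and DESeq2 are named, per the submitters' processing notes. The read counter is not given in the sources used here, nor are its strand setting and the versions. Columns were matched to samples by the labels, and groups follow genotype and treatment. Of 21959 genes, 565 had the start and end of GENCODE M21 (GRCm38), so positions are taken from that annotation and not from the table.

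From the deposited counts (13127645 to 26490651 per library), a mean for each group was fitted over 24 libraries with edgeR 4.0.16 (R 4.3.3), TMM factors, filterByExpr by group (14216 genes left) and robust quasi-likelihood F tests. Intervals are 95% intervals of the fitted log2 change. Scores are mean log2 CPM with a prior count of 2. Alternatives were DESeq2 1.42.0, limma 3.58.1 voom, other size factors, filters (none, or a minimum count of 50) and thresholds, only the groups compared, a replicate block, no robust estimation, a mesothelium covariate, 4 libraries left out and each library left out. The fit was tested on simulated data. Lists numbered 6 (pathway) and 14 (markers).

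The members, the lists and the tests were chosen with earlier results of these data known. All members are named, with genes of the smallest adjusted p per list and comparison (up to 3 by the rule; up to 3 are printed for BAPN in WT, the first elsewhere, and Col5a2, second in its list on BAPN; some are not reported here), the 2 most similar genes per member, defining markers and Atad3a. No libraries held identical counts. Correlation p come from 100000 permutations (scipy 1.17.1), whose rounded values are printed. RefSeq promoters were matched by symbol; Tgfb3 was not matched and none is printed for Smad7. Figures were drawn with matplotlib 3.10.9.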

Additional observations from a re-analysis of the deposited data

Results flagged for a closer look

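Of 40 gene and group combinations, 3 had a highest or lowest library far from the rest of its group by Dixon's criterion, and chance marks about 1 in 20. Tgfb3 was highest in WT-BAPN replicate 1 (238 CPM, the others 112 to 164). Ltbp1 and Ltbp2 were lowest in WT replicate 5, at 152 CPM (the others 813 to 1061) and 37.7 CPM (the others 138 to 184).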

How the results depend on the processing

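Of 1260 alternative values of the 50 fitted log2 changes of the 10 pathway genes, 7 crossed the threshold and 68 changed sign while uncalled. The main fits called none of these genes, so there was no call to reverse. For BAPN in WT, the number of pathway genes called, 0, became 2 with limma voom (Tgfb3 lower, Smad3 higher), 1 without the 4 libraries that stood apart, and 0 to 1 with each library left out. For KI against WT on plain water it became 1 with DESeq2, 1 with limma voom and 0 to 1 with each library left out. In the other 3 comparisons it was 0 in every alternative run. The labels do not say whether a shared replicate number links libraries. Same-numbered libraries correlated at -0.521 to 0.571 in their deviations from the group means, and libraries of different number were not set beside them. A replicate block left 0 pathway genes called, with Tgfb3 at -0.87 and Tgfb2 at -1.35 (edgeR adjusted p of 0.108 for both). Under the block Cthrc1 (3.33, adjusted p = 0.0703) and Timp1 (1.32, adjusted p = 0.256) lost their call for BAPN in WT. The number of all genes called was less steady. For BAPN in WT it was 873, 1493 with DESeq2, 4227 with limma voom and 327 to 1609 with each library left out. For BAPN in KI it was 5, 198 with DESeq2, 0 with limma voom and 0 to 143 with a library left out. For KI against WT on plain water it was 27, 480 with DESeq2, 270 with limma voom and 1 to 293 with a library left out. For KI against WT on BAPN it was 1, 28 with DESeq2 and 3 with limma voom, and for the interaction 0, 14 and 4. Pathway genes called for BAPN in WT were 8, 17 with DESeq2, 32 with limma voom and 17 without the 4 libraries. With 5 to 7 libraries a group, the intervals of Tgfb2, Tgfb3 and the Ltbp genes span over a log2 unit, so changes of that size can be missed.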
